A study of Mus musculus with 8 samples.

Results

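The cadherin genes followed in C2C12 myotubes were 6: Cdh2, Cdh4, Cdh11, Cdh13, Cdh15 and Cdhr1. They were taken as all non-control array probes named for one of these genes, which gave 11 probes for 6 genes, of 55681 probes and 23691 named genes on the array. C2C12 is a mouse myoblast line whose cells fuse into multinucleate myotubes when growth factors are withdrawn. The groups were 4 samples transfected with an siRNA against macroH2A1.1 and 4 samples transfected with a control siRNA, all at day 4 of differentiation. The histone variant macroH2A1 is made in alternatively spliced forms, of which macroH2A1.1 binds ADP-ribose. One label field describes the treated samples as a knockout, whereas titles and design speak of siRNA, which is how they are described here. The set was in part chosen by the measured differences of this same comparison: Cdh11 and Cdhr1 were selected on lower, and Cdh15 on higher, signal in the macroH2A1.1 siRNA samples. Their differences are therefore given as a description, with no test, and support nothing else.

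Cadherins are membrane proteins that hold cells together through calcium-dependent contacts between their extracellular repeats. The classical ones bind p120-catenin and beta-catenin through their cytoplasmic tail, and alpha-catenin joins that complex to actin. In skeletal muscle Cdh2 (N-cadherin) and Cdh15 (M-cadherin) lie at contacts between myoblasts and have been studied for their parts in differentiation and fusion. Cdh4 is R-cadherin, a classical cadherin first described in retina, and Cdh11 is a type II cadherin of mesenchymal cells and osteoblasts. Cdh13 (T-cadherin) is held by a lipid anchor, has no cytoplasmic tail and binds adiponectin. Cdhr1 is a cadherin-related protein known from the outer segments of photoreceptors.

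On this array a gene's level is the signal of a 60-base probe, so the probes are part of the measurement. Those of Cdh15, Cdh13 and 1 of the 3 of Cdh4 are shown because their readings span the range met here, from well above background on every array to above it on none. The Cdh15 probe lay at chr8:125391031-125391090 and the Cdh13 probe at chr8:121837969-121838028, both on the plus strand. The Cdh4 probe lay at chr2:179581965-179582024, also on the plus strand. Positions are those of build mm9 in the array files, and the exon or untranslated region they fall in was not assigned.
Cdh15 probe: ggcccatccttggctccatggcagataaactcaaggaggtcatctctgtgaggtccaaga
Cdh13 probe: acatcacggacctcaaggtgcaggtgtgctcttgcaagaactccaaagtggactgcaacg
Cdh4 probe: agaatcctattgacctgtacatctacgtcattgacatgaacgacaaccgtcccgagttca

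The 250 bases upstream of the annotated start are shown for Cdh15, the muscle cadherin that was higher, and for Cdhr1, the cadherin with the largest difference. They come from RefSeq (GRCm38.p6), where 2 of the 6 genes matched an entry, and Cdh2, Cdh4, Cdh11 and Cdh13 are named only. Capitals mark CANNTG, the E-box core to which myogenic bHLH factors such as MyoD can bind. This motif reads as CANNTG on both strands. The Cdh15 stretch runs on the plus strand of chromosome 8 (chr8:122848124-122848373), and the Cdhr1 stretch on the minus strand of chromosome 14 (chr14:37098348-37098597).
Cdh15 upstream: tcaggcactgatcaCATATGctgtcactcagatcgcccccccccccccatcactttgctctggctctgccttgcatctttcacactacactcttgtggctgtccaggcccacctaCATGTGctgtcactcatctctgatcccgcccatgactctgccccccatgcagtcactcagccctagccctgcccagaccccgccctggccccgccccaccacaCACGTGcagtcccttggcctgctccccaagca
Cdhr1 upstream: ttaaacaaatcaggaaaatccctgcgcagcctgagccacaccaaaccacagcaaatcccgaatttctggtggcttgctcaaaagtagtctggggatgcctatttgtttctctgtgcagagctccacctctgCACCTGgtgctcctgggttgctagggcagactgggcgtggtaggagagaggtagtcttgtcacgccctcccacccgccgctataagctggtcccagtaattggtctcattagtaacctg
The Cdh15 stretch held 3 matches, and 12.2% of the 32851 upstream stretches of this length in the same table held at least 3. Among the 3 was CACGTG, which 6.02% of the stretches contain, and none was CAGCTG, which 13% contain. The Cdhr1 stretch held 1 match, as 66.2% of stretches held at least 1. These are letter matches, and no binding was measured.

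All arrays lay on 1 slide, and 46.9% to 49.8% of the 59305 non-control spots on each were well above background. No spot was saturated. Correlations between arrays lay between 0.964 and 0.992, and macroH2A1.1 siRNA replicate 2 stood apart on the first principal component (60.2, against -27.4 to 7.79 for the other 7 arrays). Macroh2a1, the target gene, had 3 probes well above background on every array. The splice form they read was not assigned, so the level of macroH2A1.1 itself was not measured. On each of these probes every macroH2A1.1 siRNA sample was below every control sample, with 37.4% to 50.5% of the control signal left. Their limma adjusted p lay between 0.054 and 0.138 when pairs were ignored and between 0.023 and 0.033 when the fit took replicate number as a block. Samples of the same number deviated together from their group means, so both fits are given where they differ. All 12 myotube markers were measured in both groups.

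Levels below are log2 signals relative to the 75th percentile of the same array, and a difference is macroH2A1.1 siRNA minus control siRNA on that scale. In at least 1 group, 7 of the 11 cadherin probes were well above background on every array, which measured 5 of the 6 genes among 13692 genes in all. Of these, Cdh2 and Cdh13 were not chosen for a change and could be tested. Neither passed an adjusted p of 0.05 in limma without a block, where 0.0219% of all genes did (3 genes, with 1659 at an unadjusted p under 0.05). Neither passed with the block, where 8.13% of all genes did. Levels of different probes are not compared with one another, since probes differ in how brightly they read.

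**Figure D1:**
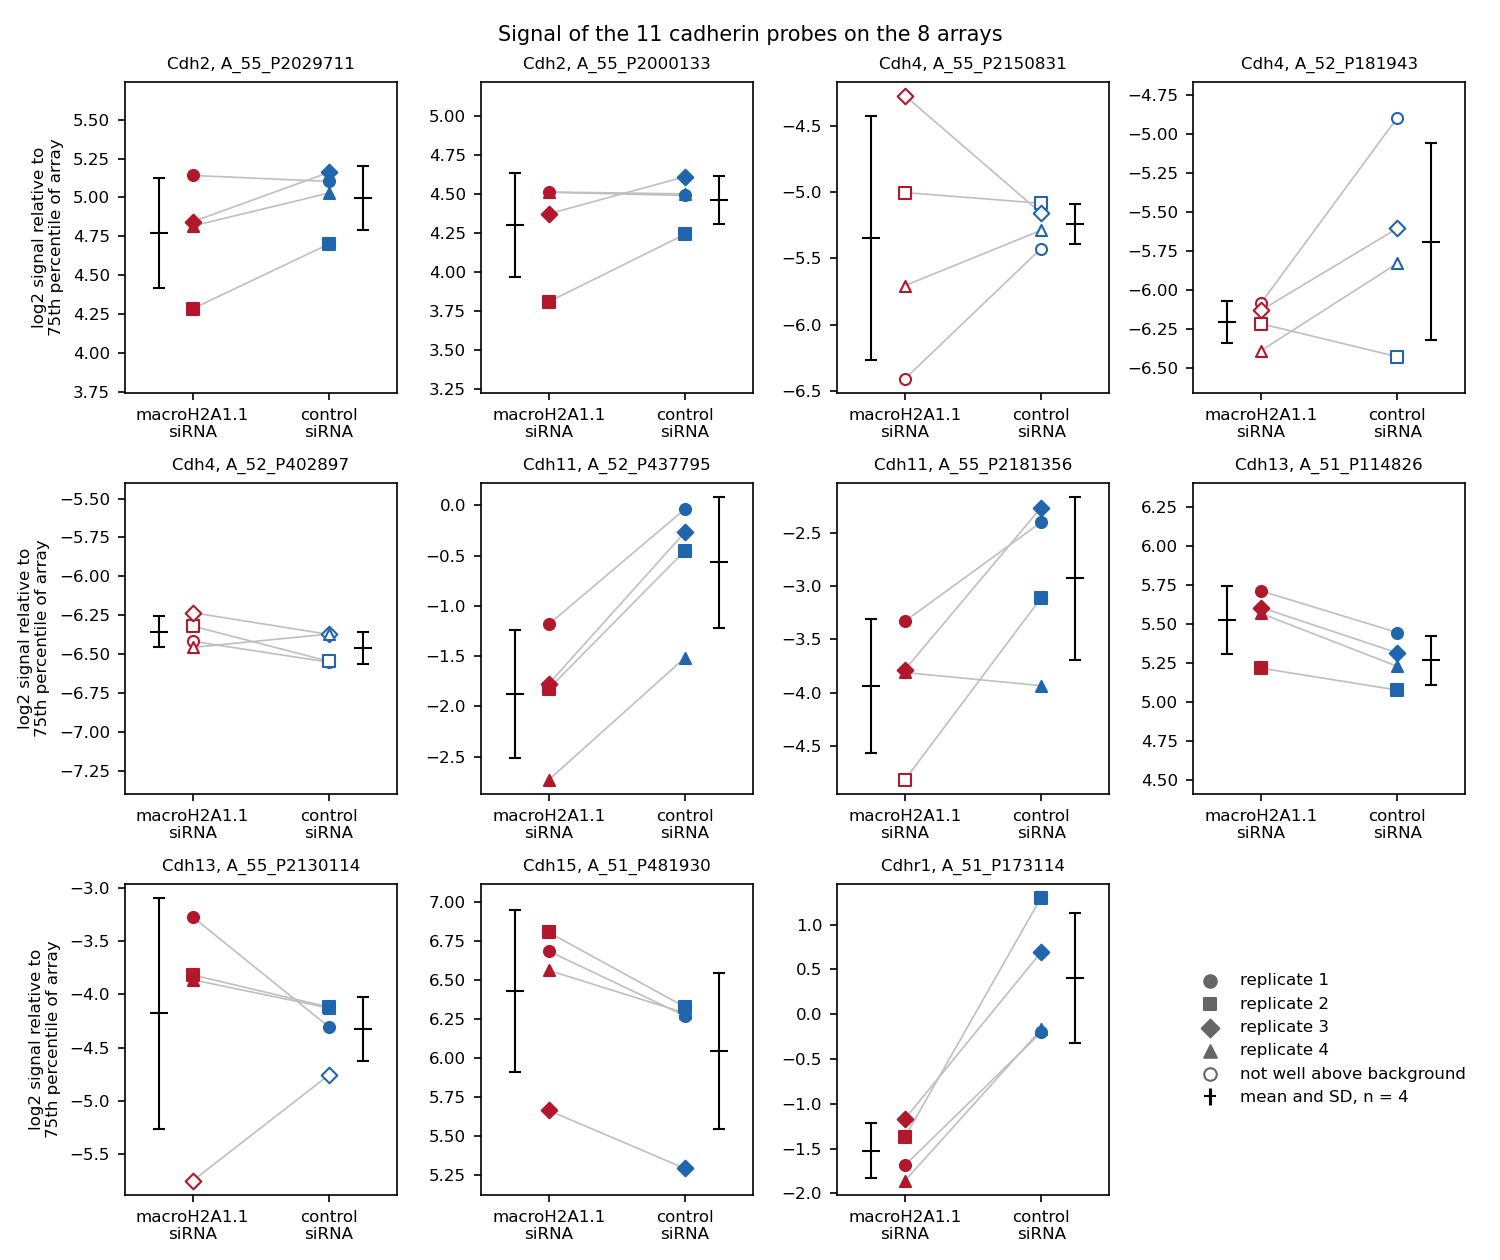
Log2 signal, centred on the 75th percentile of each array (y axis, a separate scale in each panel) for each of the 11 probes, macroH2A1.1 siRNA on the left and control siRNA on the right, with grey lines joining samples of the same number and bars for mean and SD (n = 4). Open points were not well above background, as were all points of the 3 Cdh4 probes. Only for Cdhr1 do the groups of a probe above background on every array not overlap, as in 7.95% of all genes. Cdhr1 was chosen for its difference, so nothing is read from this.

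The 2 measured type I cadherins, both of myoblasts, were Cdh15, chosen for its higher signal, and Cdh2, whose difference did not pass the test. Their opposite signs are therefore not read as a result. Cdh15 read 6.68, 6.81, 5.66 and 6.56 in macroH2A1.1 siRNA replicates 1 to 4, against 6.27, 6.33, 5.29 and 6.29 in control siRNA replicates 1 to 4. Replicate 3 was the lowest of both groups, and macroH2A1.1 siRNA replicate 3 lay below 3 of the control samples, so the groups overlapped. Within each pair, however, the macroH2A1.1 siRNA sample was the higher one, by 0.41, 0.48, 0.37 and 0.27. The means were 6.43 ± 0.52 with macroH2A1.1 siRNA and 6.04 ± 0.50 with control siRNA (SD, n = 4 each), a 1.31-fold difference. The spread between samples of a group was larger than the difference, but the pair differences had an SD of only 0.086. Accordingly, the difference of 0.39 had an SE of 0.31 without the block and 0.061 with it. Its size depended on replicate 3: it read 0.64 when macroH2A1.1 siRNA replicate 3 was left out, and 0.13 when control siRNA replicate 3 was. When the whole of pair 3 was left out it stayed at 0.39. Without macroH2A1.1 siRNA replicate 2, the array that stood apart, it read 0.26, and without the whole of pair 2 it read 0.35.

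Myotube markers were higher along with Cdh15. Of 12 markers measured, 7 rose and 0 fell with the block, against 4.18% and 3.94% of all genes, and 0 passed without it. Their median difference was 0.36, beside 0.00 over all genes. Mylpf, a fast myosin light chain, rose by 0.51 (limma adjusted p = 0.017 with the block), Des, the intermediate filament desmin, by 0.58 (adjusted p = 0.025) and Ckm, muscle creatine kinase, by 0.41 (adjusted p = 0.044). Myog, a regulator of differentiation, read 0.06 (adjusted p = 0.683). Without pair 1, 2 or 3 the count was 0, where 0, 140 and 0 of all 13692 genes passed. Without pair 4 it was 2, where 603 genes passed. A count of 0 without pair 1 or 3 was thus not particular to these markers. All 12 markers still read above 0 in each case. The log2 of the summed marker signal ranged from 11.2 to 11.8 with macroH2A1.1 siRNA and from 10.9 to 11.4 with control siRNA. In replicate 3, where Cdh15 was lowest, the summed marker level was 11.67 with macroH2A1.1 siRNA and 11.39 with control siRNA, the highest of the control arrays. The part of the marker shift in the Cdh15 difference was not tested. In RNA from whole cultures, fewer cells of a type and less RNA per cell cannot be told apart.

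Cdh2 showed no difference that passed the test. Its brighter probe read 5.14, 4.29, 4.84 and 4.82 with macroH2A1.1 siRNA, against 5.10, 4.70, 5.16 and 5.03 with control siRNA. The groups overlapped, with replicate 2 the lowest of each and 3 of the 4 pairs lower with macroH2A1.1 siRNA. The means were 4.772 ± 0.356 with macroH2A1.1 siRNA and 4.998 ± 0.206 with control siRNA (SD, n = 4 each). The difference of -0.23 had a 95% interval of -0.65 to 0.20 and a limma adjusted p of 0.714 without the block. With the block the interval was -0.45 to -0.0046 and the adjusted p was 0.172. Without macroH2A1.1 siRNA replicate 2 the difference was -0.06. The second Cdh2 probe read 4.51, 3.81, 4.37 and 4.51 with macroH2A1.1 siRNA, against 4.49, 4.24, 4.61 and 4.50 with control siRNA. It differed by -0.16, with a limma adjusted p of 0.846 without the block and 0.393 with it.

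Cdh4 could not be measured on these arrays. None of its 3 probes was well above background on any of the 8 arrays, so the gene entered no test and has no fold. The probe shown above read from -6.39 to -6.09 with macroH2A1.1 siRNA and from -6.43 to -4.90 with control siRNA, values that have no order below background.

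**Figure D2:**
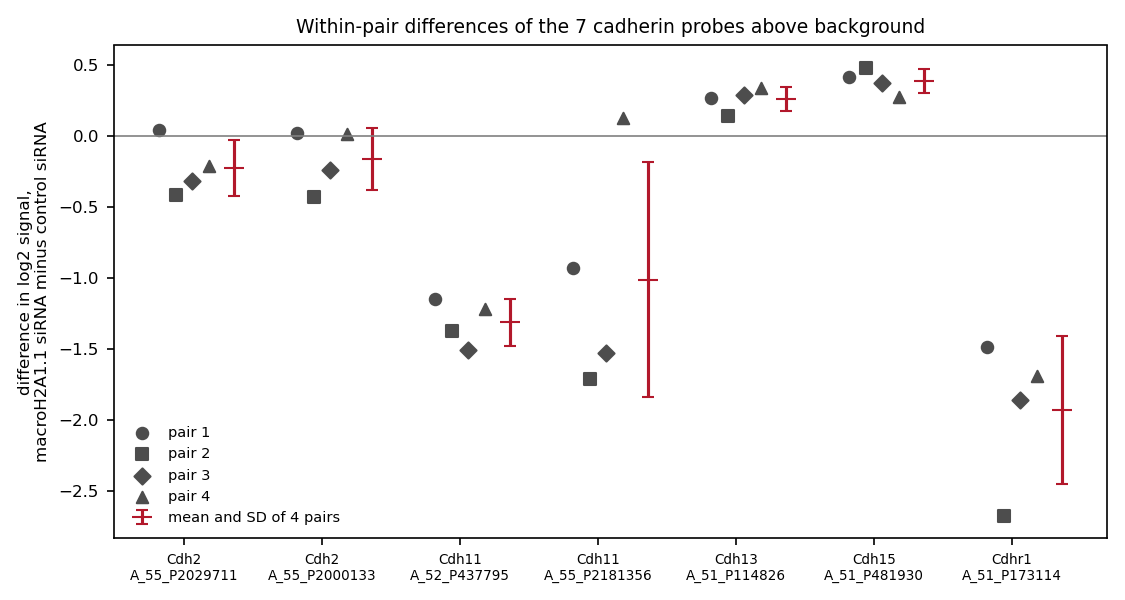
Difference in log2 signal, macroH2A1.1 siRNA minus control siRNA (y axis), in each of the 4 pairs of equal replicate number for 7 cadherin probes (x axis). Each probe was well above background on every array of at least 1 group. The mean and SD of the 4 pairs are in red. Probes of Cdh11, Cdh15 and Cdhr1 were not tested. The pairs of the brighter Cdh11 probe lie between -1.51 and -1.15 and those of Cdh15 between 0.27 and 0.48, while those of Cdhr1 spread from -2.67 to -1.48.

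The type II cadherin Cdh11 was lower with macroH2A1.1 siRNA, and by a like amount in every pair. Its brighter probe, at chr8:105157473-105157532 on the minus strand (mm9), read -1.18, -1.83, -1.78 and -2.73 with macroH2A1.1 siRNA, against -0.04, -0.45, -0.27 and -1.52 with control siRNA. The groups overlapped through control siRNA replicate 4, which lay below macroH2A1.1 siRNA replicate 1. Replicate 4 was the lowest of both groups. The means were -1.88 ± 0.64 with macroH2A1.1 siRNA and -0.57 ± 0.65 with control siRNA (SD, n = 4 each), and 40.3% of the control signal was left. The pair differences were -1.15, -1.38, -1.51 and -1.22, with an SD of 0.16. The mean difference of -1.31 had an SE of 0.39 without the block and 0.079 with it. It lay between -1.63 and -1.03 when 1 array was left out and read -1.33 without macroH2A1.1 siRNA replicate 2. The size depended on background correction: it was -0.78 with normexp and -0.80 in the authors' series values.

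The other Cdh11 probe gave a less even picture. It was well above background on 3 macroH2A1.1 siRNA arrays and on 4 control siRNA arrays. It read -3.33, -4.82, -3.78 and -3.81 with macroH2A1.1 siRNA, against -2.40, -3.11, -2.26 and -3.93 with control siRNA. Pairs 1 to 3 differed by -0.93, -1.71 and -1.53, but pair 4 differed by 0.12, so the probes disagreed in that pair. The mean difference was -1.01 (SE 0.42 without the block and 0.31 with it). The array files give this probe a span of 33 bases in mm9, shorter than the 60 bases of the probe.

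Fibroblast markers were examined beside Cdh11, since mesenchymal cells express this cadherin. Of 10 such markers 8 were measured, and Thy1 and Tcf21 were above background on 0 arrays. With the block 2 fell and 1 rose, against 3.94% and 4.18% of all genes, and 0 passed without it. The count of calls was 0 without pair 1 or 3, as it was over all genes. It was 1 without pair 2, where 140 of 13692 genes passed. Without pair 4, 2 fell and 1 rose, where 603 genes passed. Postn, a matricellular protein, fell by 1.01 (limma adjusted p = 0.015) and Col1a2, a collagen I chain, fell by 0.40 (adjusted p = 0.044). Fap, a serine protease of activated fibroblasts, rose by 2.40 (adjusted p = 0.023), but it was above background on 3 of the 4 control siRNA arrays and so entered the test only through the group where it was higher. The list's median difference was -0.17, and 0.04 without macroH2A1.1 siRNA replicate 2. The summed level ranged from 9.69 to 10.19 with macroH2A1.1 siRNA and from 9.87 to 10.24 with control siRNA, and in replicate 4, where Cdh11 was lowest, it was 9.78 with macroH2A1.1 siRNA and 9.87 with control siRNA. The part of these genes in the Cdh11 difference was not tested.

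Of 13 type II cadherins on the list 4 were measured. Besides Cdh11, 0 of 3 passed in either limma fit, against 8.13% of all genes with the block. Cdh8 read 0.02 (limma adjusted p = 0.948 with the block), Cdh12 -0.30 (adjusted p = 0.231) and Cdh18 -0.09 (adjusted p = 0.763). All 3 were above background on every array but dim, with control siRNA means of -2.33, -2.89 and -1.97, which limits what they can show. Cdh5, the endothelial cadherin, was above background on 0 arrays. Among type I cadherins, Cdh1, the epithelial one, was above background on 2 macroH2A1.1 siRNA arrays and 1 control siRNA array, and Cdh3 on 0 arrays.

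Cdhr1, outside the classical types, had the largest difference of the 5 measured cadherins. Its single probe, at chr14:37891387-37891446 on the minus strand (mm9), read -1.69, -1.37, -1.17 and -1.86 with macroH2A1.1 siRNA, against -0.20, 1.30, 0.69 and -0.17 with control siRNA. The groups did not overlap, as in 7.95% of all genes, and nothing is read from this since Cdhr1 was chosen for its difference. The means were -1.52 ± 0.31 with macroH2A1.1 siRNA and 0.40 ± 0.73 with control siRNA (SD, n = 4 each), so 26.3% of the control signal was left, a 3.80-fold lower level with this background correction. The control samples spread more than the macroH2A1.1 siRNA samples, with replicates 2 and 3 the higher ones. The pair differences were -1.48, -2.67, -1.86 and -1.69. The mean difference of -1.93 had an SE of 0.34 without the block and 0.20 with it. It lay between -2.13 and -1.63 when 1 array was left out, read -1.98 without macroH2A1.1 siRNA replicate 2 and was -1.68 without the whole of pair 2. It was smaller with normexp background correction, at -1.43, and in the authors' series values, at -1.42. All 7 photoreceptor markers examined were above background on 0 arrays.

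Cdh13 read slightly higher with macroH2A1.1 siRNA but did not pass the test. Its brighter probe read 5.71, 5.22, 5.60 and 5.57 with macroH2A1.1 siRNA, against 5.44, 5.08, 5.31 and 5.23 with control siRNA. All 4 pairs were higher with macroH2A1.1 siRNA, by 0.27, 0.14, 0.29 and 0.34, while the groups overlapped. All 4 pairs ran one way in 37.7% of all genes. The means were 5.52 ± 0.22 with macroH2A1.1 siRNA and 5.27 ± 0.15 with control siRNA (SD, n = 4 each). The difference of 0.26 had a 95% interval of -0.04 to 0.56 and a limma adjusted p of 0.481 without the block. With the block the interval was 0.11 to 0.41 and the adjusted p was 0.060. It passed with the block after normexp background correction (0.23, adjusted p = 0.046) and in the authors' series values (0.23, adjusted p = 0.036). The second Cdh13 probe was well above background on 3 arrays of each group and was left out of the fit. It differed by 1.03, 0.30, -0.99 and 0.27 in the pairs.

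The pairs did not rank alike across genes. The Macroh2a1 probe used for the gene differed by -1.06, -0.92, -1.24 and -0.72 in pairs 1 to 4, the smallest loss being in pair 4. Pair 4 also had the smallest difference of Cdh15 and of the dimmer Cdh11 probe (0.12). The smallest Cdhr1 difference was in pair 1, and the smallest Cdh13 difference in pair 2. The brighter Cdh11 probe had its smallest in pair 1 (-1.15), close to that in pair 4 (-1.22). With 4 pairs this is a description only.

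Across the cadherin superfamily, 23 of 59 listed genes were measured. Leaving out Cdh11, Cdhr1 and Cdh15, 1 of 20 rose and 2 fell with the block, against 4.18% and 3.94% of all genes, 0 passed without it, and the median difference was -0.08. Pcdh19, a protocadherin, fell by 0.61 (limma adjusted p = 0.040 with the block). Its means were 3.24 ± 0.35 for macroH2A1.1 siRNA and 3.84 ± 0.19 for control siRNA (SD, n = 4 each). Pcdh1 rose by 0.44 (adjusted p = 0.037), with means of 2.03 ± 0.22 for macroH2A1.1 siRNA and 1.60 ± 0.25 for control siRNA (SD, n = 4 each). For both genes the groups did not overlap, as in 7.95% of all genes. Fat4, a giant cadherin that binds Dchs1, fell by 0.87 (adjusted p = 0.023), but it was above background on 3 of the 4 macroH2A1.1 siRNA arrays, entered the test only through the control siRNA group, and read only -0.16 with normexp, where it did not pass (adjusted p = 0.102 with the block). Fat1 read -0.18 (adjusted p = 0.251), Cdhr2 -0.02 (adjusted p = 0.867) and Pcdh18 -0.29 (adjusted p = 0.252).

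**Figure D3:**
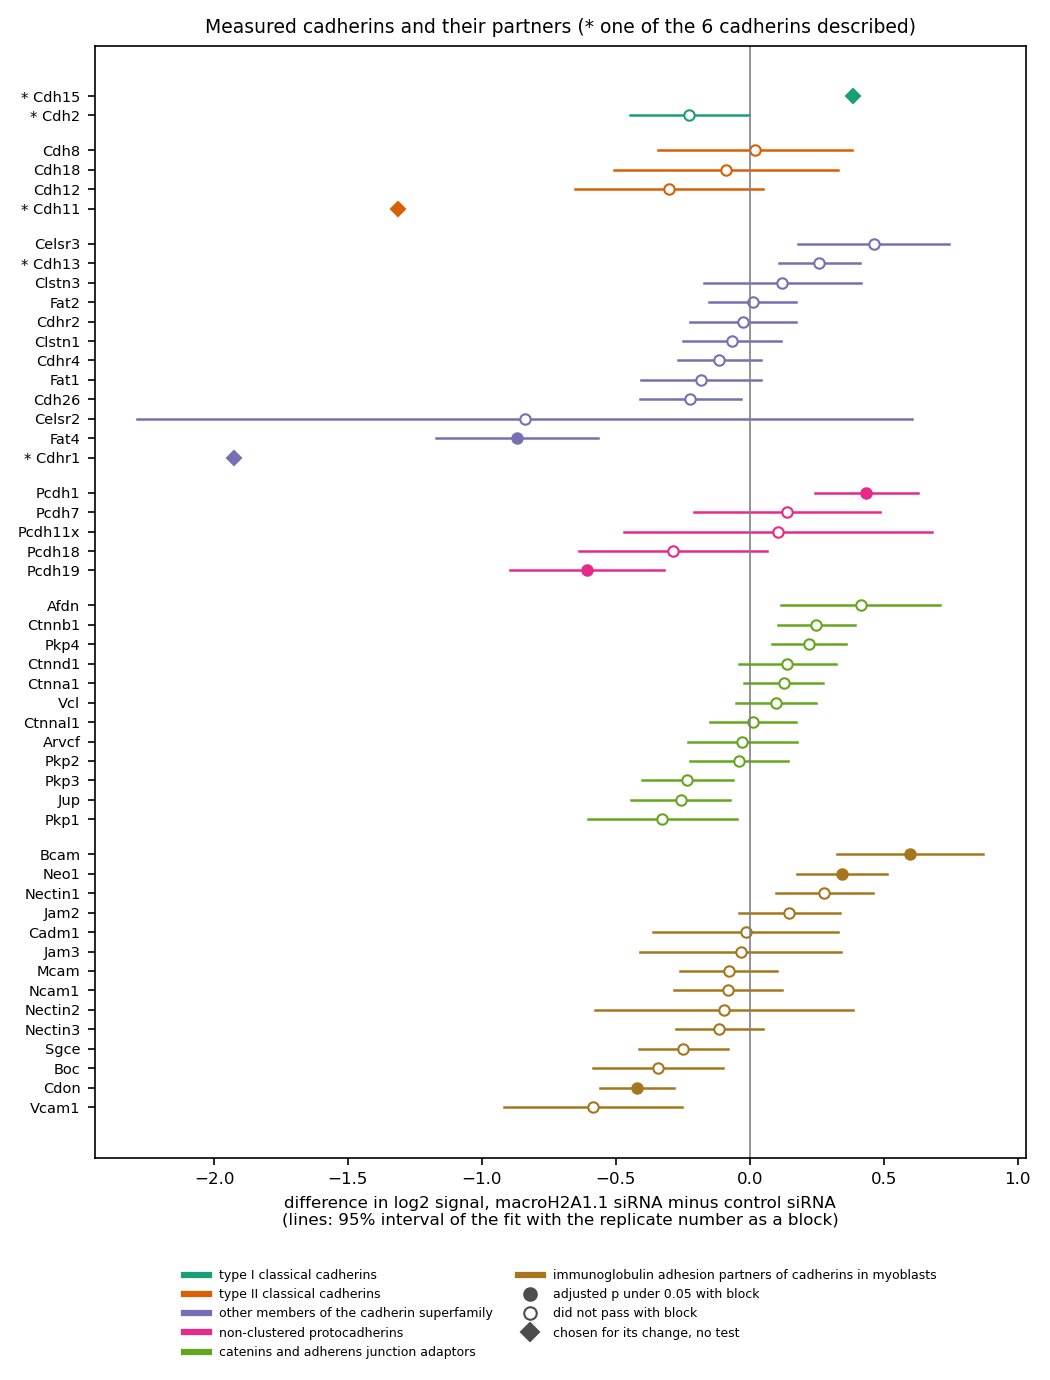
Difference in log2 signal, macroH2A1.1 siRNA minus control siRNA (x axis), for each measured gene of the cadherin superfamily, the catenins and adaptors, and the other adhesion partners, which are immunoglobulin proteins apart from Sgce (y axis), with 95% intervals from the fit with the replicate block. Filled circles passed an adjusted p of 0.05 with the block (Fat4, Pcdh1, Pcdh19, Bcam, Neo1 and Cdon), open circles did not, and diamonds are the 3 cadherins chosen for their change, drawn without an interval.

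The catenins, which tie cadherin tails to actin, showed no change that passed in either fit. Of 16 catenins and junction adaptors 12 were measured and 0 passed, against 8.13% of all genes with the block. With 12 genes, 0 is close to that share and is not read as a result about catenins. With the block after normexp 2 rose and 1 fell, where 1897 of 13692 genes passed. With the block in the authors' series values 1 rose and 1 fell, where 1715 genes passed. The median difference was 0.05. Ctnna1 (alpha-catenin) read 0.13 (limma adjusted p = 0.235 with the block), Ctnnd1 (p120-catenin) 0.14 (adjusted p = 0.277) and Pkp1 (a plakophilin of desmosomes) -0.33 (adjusted p = 0.131). Ctnnb1 (beta-catenin), named after its value was seen, read 0.25 with a 95% interval of 0.11 to 0.39 and an adjusted p of 0.057. Likewise 0 of 16 genes of cadherin processing and signalling passed in either fit, beside the same 8.13% of all genes with the block. Their median was -0.01. There Cdc42 and Rhoa, small GTPases, read 0.07 (adjusted p = 0.498) and -0.04 (adjusted p = 0.666), and Bnip2, a scaffold that binds M-cadherin, read -0.08 (adjusted p = 0.517).

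Of 15 other adhesion partners at myoblast contacts, immunoglobulin proteins apart from the sarcoglycan Sgce, 14 were measured. With the block 2 rose and 1 fell, against 4.18% and 3.94% of all genes. None passed without it, and the median was -0.08. Cdon, a co-receptor that associates with N- and M-cadherin in myoblasts, fell by 0.42 (limma adjusted p = 0.021). Its means were 4.42 ± 0.08 for macroH2A1.1 siRNA and 4.84 ± 0.12 for control siRNA (SD, n = 4 each). The Cdon groups did not overlap, as in 7.95% of all genes. Its second probe read -0.34 and did not pass (adjusted p = 0.161 with the block). Neo1 (neogenin, a netrin receptor) rose by 0.35 (adjusted p = 0.043), and Bcam, a laminin-binding adhesion molecule, rose by 0.60 (adjusted p = 0.038). Ncam1, a marker of differentiating myoblasts, read -0.08 (adjusted p = 0.551), and Jam2 read 0.15 (adjusted p = 0.270). The 6 calls with the block in the superfamily and among these partners depended on which pairs were in the fit. Of the 6, 0 passed without pair 1, 2 or 3, where 0, 140 and 0 of all 13692 genes did. Without pair 4, 2 passed (Fat4 and Pcdh19), where 603 genes did. When dim probes were kept, 0 of the 6 passed, as did 0 of all 23691 genes. The losses without pair 1 or 3 and with dim probes kept were thus not particular to these genes. All 6 kept their direction, although keeping dim probes left their estimates as they were and so could not change it. When the probes were fitted singly with the block, Fat4 (adjusted p = 0.034) and Cdon (adjusted p = 0.038) passed. Pcdh1 (0.056), Pcdh19 (0.058), Neo1 (0.068) and Bcam (0.055) had an adjusted p above the threshold there. These fits reuse the same probe values with the adjustment taken over all kept probes, so they are no further check. Fat4 again entered only through the control siRNA group.

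Genes with the most similar profiles were sought for the 3 chosen cadherins, by the mean absolute difference between deviations from each gene's own mean over the 8 arrays. For Cdh11, among 13640 genes, these were Krt14 (0.21), Casq1 (0.27) and Tmem95 (0.31), where the median gene lay at 0.76. Krt14, a keratin, and Casq1, the calcium store protein of fast muscle, were low in macroH2A1.1 siRNA replicate 4 as Cdh11 was. For Cdhr1 they were Bach2 (0.33), Tspan8 (0.33) and Rgcc (0.37), with the median gene at 0.97. For Cdh15 they were Klf2 (0.11), Gamt (0.12) and 1700001L05Rik (0.12), with the median gene at 0.42. Klf2, a zinc finger transcription factor, and Gamt, the enzyme of the last step of creatine synthesis, also had their lowest values in replicate 3 of both groups. Likeness over 8 arrays that differ by group and by pair is a description and says nothing of shared control.

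**Figure D4:**
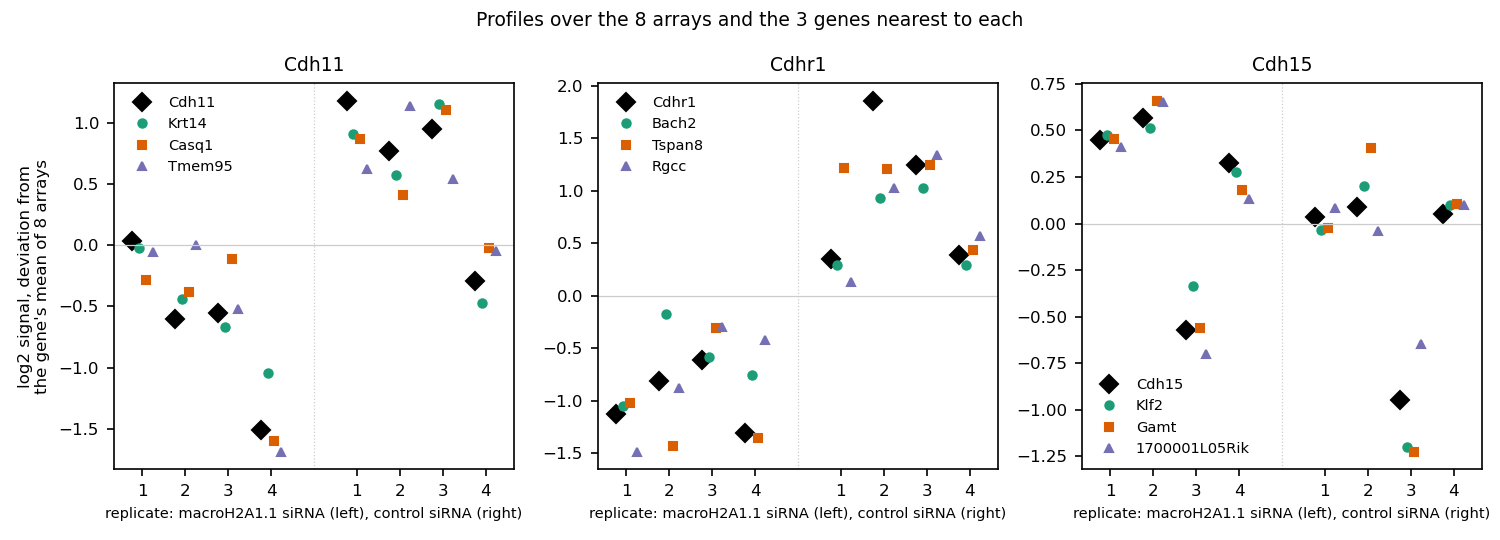
Deviation of log2 signal from each gene's mean over the 8 arrays (y axis) in replicates 1 to 4 of macroH2A1.1 siRNA (left of the dotted line) and of control siRNA (right) for Cdh11, Cdhr1 and Cdh15 (black diamonds) and the 3 genes nearest to each (coloured). In the Cdh15 panel all 4 genes are lowest in replicate 3 of both groups.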

How the data were processed

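Total RNA (500 ng per sample) was labelled with Cy3 and hybridised to 1-colour Agilent arrays, per the labels' protocols. The spot intensity values were extracted and background-subtracted by the authors, whose files name Agilent's Feature Extraction software, version 10.7.3.1, and mouse build mm9 per the file headers. The authors' deposited series values follow the log2 median signal of each array (r between 0.9977 and 0.9996) and have 1 median in all columns (6.29). Their background handling is unknown, so they were used as an alternative.

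For each array, the 75th percentile of log2 processed intensity was subtracted. Control spots were dropped, outlier spots, 143 to 236 on an array, were treated as missing, and repeated spots were averaged. Probes were named by accession from RefSeq (27592 of 55681), by symbol (3498) or older symbol (393), or kept the name in the file (1336), while 22862 stayed unnamed. A probe was kept when it was well above background on all 4 arrays of 1 group, and the kept probe of highest mean stood for a gene (13692 genes).

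The comparison used limma 3.58.1 in R 4.3.3 (two-sided, p-values adjusted by Benjamini-Hochberg across all genes, calls at 0.05), first without a block and then blocking on replicate number. By a rule that every pair correlate above 0.1, the numbers pair the samples: deviations of same-numbered samples correlated at 0.61, 0.55, 0.66 and 0.41. Same-numbered arrays are neighbours on the slide, and effects of culture and of position cannot be told apart. Each array column holds 1 group. The labels call the replicates biological and do not describe the cultures, so p-values reflect only the spread between these samples. The number of arrays limits the precision. The fits were tested on simulated data. Columns of per-sample values mapped to no sample numbered 0. Named genes are every probe of the 6 cadherins, the target, listed genes past the threshold in either fit, up to 3 per list of highest mean, and the 3 nearest profiles of each chosen cadherin. Marker examples were chosen after their values were seen. The cadherins, lists and tests were chosen with earlier results of these data known. Alternatives were the series values, normexp (offset 50), median centring, quantile normalization, other filters and probe choices, array row or column as blocks, trended robust eBayes, and each array left out in turn. Further settings of the block fit, such as pairs left out, were added after seeing the data.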

Additional observations from a re-analysis of the deposited data

Results flagged for a closer look

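Among 14 groups of 4 values tested for an outlying sample, of which chance flags about 1 in 20, 1 stood out. Control siRNA replicate 3 read 5.29 for Cdh15, the lowest of its group, against 6.27 to 6.33 in the other control siRNA samples. Its gap to the nearest sample was 0.946 of the group's range, above Dixon's critical value for 4 samples. The macroH2A1.1 siRNA sample of the same number, at 5.66, was also the lowest of its group but did not pass that value.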

How the results depend on the processing

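The differences of Cdh2, Cdh11, Cdh13, Cdh15 and Cdhr1 kept their direction under all 29 alternatives. Several of these could not change it, since they altered only the error estimate or which other probes were kept. Cdh11, for example, read -1.31 in each of those. Cdh11, Cdh15 and Cdhr1 were also chosen by the direction of their difference. The count of 29 is therefore a description only. With 1 array left out, they ranged from -0.35 to -0.06 for Cdh2, from -1.63 to -1.03 for Cdh11, from 0.20 to 0.36 for Cdh13, from 0.13 to 0.64 for Cdh15 and from -2.13 to -1.63 for Cdhr1. Cdh2 passed in none (limma adjusted p from 0.071 to 0.893), and Cdh13 passed in 2 (adjusted p from 0.036 to 0.751), with the replicate block after normexp (0.23, adjusted p = 0.046) and with the block in the authors' series values (0.235, adjusted p = 0.036). The replicate block alone changed neither call. The number of genes past the threshold was 3 without a block and 1113 with the replicate block. Without a block it was 1 with median centring, 1 over single probes, 10 with the array row as a block, 7 with the column as a random block, and 0 to 11 with 1 array left out. With the block it was 0, 140, 0 and 603 without pair 1, 2, 3 and 4, 0 with dim probes kept (3926 at an unadjusted p under 0.05), 1897 with normexp, 1715 in the series values, 1051 with quantile normalization and 786 over single probes. The cause of these changes was not tested. Cdh4 entered a fit only when dim probes were kept, and its value there is not given, since no probe was above background. Signal near background limits what Cdh4, Fat4, Cdh8, Cdh12, Cdh18 and the dimmer Cdh11 and Cdh13 probes can show.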

Other observations

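Markers of other cells were read beside the cadherins. Of 9 myoblast or reserve cell markers 7 were measured, and with the replicate block Itga7, an integrin of muscle, rose by 0.34 (limma adjusted p = 0.033) and Cd34, a marker of quiescent muscle progenitors, fell by 0.63 (adjusted p = 0.024). Neither passed without the block or without pair 1, 2 or 3, although without pair 1 or 3 no gene on the array passed. Itga7 also did not pass without pair 4 or with the block after quantile normalization. Myf5 was above background on 0 arrays. The log2 summed level of the 7 ranged from 8.89 to 9.23 with macroH2A1.1 siRNA and from 8.58 to 8.99 with control siRNA. This sum is mostly Itga7 signal (means 8.81 with macroH2A1.1 siRNA and 8.47 with control siRNA) and so largely restates that gene. The median difference of the 7 was 0.02, with 4 above 0 and 3 below. Of the epithelial markers 1 of 6 was measured, of the endothelial markers 2 of 6 and of the macrophage markers 6 of 7. Of these, 0 passed in either fit, against 8.13% of all genes with the block. With the block after normexp 1 macrophage marker rose. Since C2C12 is a myoblast line, signal from epithelial, endothelial or macrophage markers is not read as the presence of such cells. Of the Schwann cell or neuron markers 4 of 7 were measured. S100b, a calcium-binding protein, read 0.93 (adjusted p = 0.034 with the block), but it was above background on 3 of the 4 control siRNA arrays, so it entered the test only through the group where it was higher. It did not pass without the block, without any one pair, or with the block in the authors' series values.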
